A study of Mus musculus with 2 samples.

Results

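The genes of the S100 calcium-binding proteins were followed in small proliferative adipocytes after differentiation (SPAD) and, as their counterpart, in stromal vascular cells after the same differentiation (SVCD). The members were 10 genes, S100a1, S100a4, S100a6, S100a8, S100a9, S100a10, S100a11, S100a13, S100a16 and S100b, out of 20884 genes that could be named on the arrays. They were found through the RefSeq transcript that each probe carries, which gave 13 probes, 2 for each of 3 genes and 1 for each of the other 7. Both populations came from the epididymal fat of male C57/BL mice, whose age the labels do not state. After collagenase digestion and a first spin at 9 ×g, cells in the lower phase were taken as stromal vascular cells, and those that sedimented when the floating layer was spun again at 226 ×g as small proliferative adipocytes. Both were grown in DMEM to 90% confluency, given insulin, dexamethasone and IBMX for 3 days to induce adipocyte differentiation, and kept for 2 more days in DMEM without these additions. The undifferentiated cells are not part of the comparison, and neither the number of mice nor that of cultures behind each RNA is stated. Each group was measured on 1 single-colour Agilent array.

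S100 proteins are small proteins, most of which bind calcium through a pair of EF-hand loops and then expose a surface that grips a partner protein. Inside the cell these partners include annexins, myosin and kinases, and some members, above all the S100a8 and S100a9 pair called calprotectin, are also released and act on receptors such as Tlr4 and Ager. In fat, S100b is known from mature adipocytes, S100a8 and S100a9 from neutrophils and monocytes, and S100a4 from fibroblasts and macrophages.

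Across the 10 genes there was no common direction. S100a8 and S100b were higher in SPAD and S100a9 was detected in SPAD alone, S100a4 was lower, and the other 6 differed by less than 2-fold. Signals are processed intensities, the background-subtracted brightness of a spot in arbitrary units, and different probes bind unequally, so a gene's signal is compared only with its own signal on the other array. Differences are given as SPAD minus SVCD on a log2 scale, after each array was divided by its own 75th percentile, 622 for SPAD and 678 for SVCD. Among the 9 members that cleared background on each array, 2 exceeded a 2-fold gain in SPAD, against 14.4% of all 14074 genes measured this way. The single member at least 2-fold lower, S100a4, stands against 13.3% of the same genes, and the 3 together against 27.7%. These shares also stand beside the counts of the gene lists below. No member was detected in SVCD alone, as 869 genes were, 38.2% of them at least 2-fold lower by their bound. The 10 members had a median difference of 0.08, and all genes detected on at least 1 array had 0.07. Since each group has 1 array, differences could not be checked between replicates and no test was made.

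The error given with a difference is the SD between repeat spots of other probes with a like signal, and it covers neither the culture nor the RNA preparation. For probes printed 10 times it is the error of the mean of their spots, and so smaller. This error was 0.08 for the bright members, while the scanner software's own error model gave 0.20 for them. Scaled instead to the spike-in controls, every difference was lower by 0.84, and genes higher in SPAD then made up 12.0% rather than 52.0% of those at least 2-fold apart. In mixed RNA such as this, fewer cells of a type and less RNA per cell cannot be told apart.

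**Figure D1:**
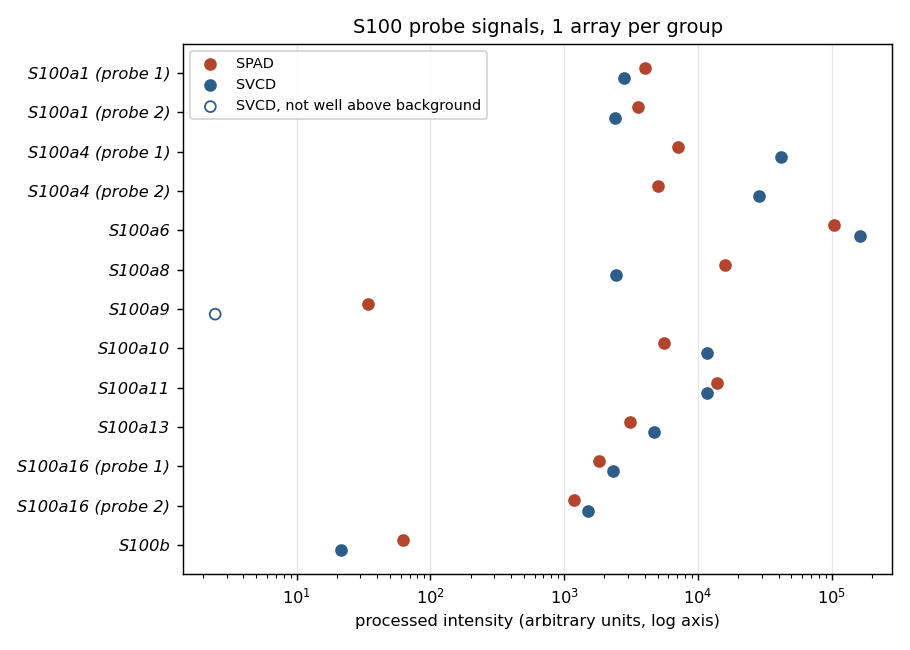
Processed intensity (arbitrary units, log axis) of the 13 S100 probes, SPAD drawn above SVCD in each row. The S100a8 signal was 16015 in SPAD and 2459 in SVCD, while both S100a4 probes lay further right in SVCD; the open point marks S100a9 in SVCD, which was not well above background.

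Both calprotectin genes were higher in SPAD, but at very unequal distance from background. S100a8 had a processed intensity of 16015 in SPAD, against 2459 in SVCD, which made it 7.11-fold higher in SPAD (log2 difference 2.83 ± 0.08, spot SD). Its sign and its place beyond 2-fold held under all 9 alternative ways of processing, between 1.99 and 2.83. Several of these could hardly move it, since S100a8 has 1 probe, no outlier spot and was detected on both arrays. The authors' deposited differences are shifted from the scaled ones only by a constant. Normexp background correction gave 2.79, quantile normalization 2.73, median scaling 2.76 and spike-in scaling 1.99. S100a9, whose protein is the usual partner of S100a8, had 34.0 in SPAD and 2.46 in SVCD. The SVCD signal was not well above background, where the lowest signal counted as such was 8.60. This gave S100a9 a bound of 4.32-fold higher (log2 bound 2.11). Of the 682 genes detected in SPAD alone, 76.0% reached 2-fold by their bound, so a bound past 2-fold is common among such genes. With the normexp background correction the S100a9 bound shrank to 0.73. That setting adds an offset of 50 to every signal, which draws the differences of dim genes toward 0 by construction, here and below. S100a8 was thus bright on both arrays, while S100a9 was close to the detection limit in SPAD and below it in SVCD.

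Markers of cells that usually carry these genes were measured beside them. Of 9 neutrophil genes on the array, 5 were detected and 2 of them were at least 2-fold higher in SPAD, namely the collagenase gene Mmp8 (9686 in SPAD, 4305 in SVCD) and the antimicrobial peptide gene Camp (88.3 in SPAD, 42.8 in SVCD). The count was 1 with normexp, where Camp differed by 0.68, and 0 with spike-in scaling. The granule and receptor genes Ngp, Ltf, Cxcr2 and Retnlg were not well above background on either array. The summed signal of the neutrophil list was 73953 in SPAD and 53424 in SVCD, over the same probes on both arrays and before scaling. The list's median difference of 0.82 turned to -0.02 with spike-in scaling. Macrophage genes summed to 111092 in SPAD and 178612 in SVCD, and 7 of the 9 detected on both arrays were at least 2-fold lower in SPAD. Their median difference was -3.07 over the 10 detected on at least 1 array. Bright probes weigh most in such sums, here and for the lists below. The part of either cell type in the S100a8 signal was not tested.

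The promoter windows of both calprotectin genes and of S100a4 are shown because these 3 had the largest differences among the 10 members, in opposite directions. Each runs from 250 bases before to 50 bases after the annotated start (RefSeq, GRCm38.p6), and capitals mark the letters TATAAA, the core of a TATA box:
S100a8 (chr3:90668821-90669120, + strand): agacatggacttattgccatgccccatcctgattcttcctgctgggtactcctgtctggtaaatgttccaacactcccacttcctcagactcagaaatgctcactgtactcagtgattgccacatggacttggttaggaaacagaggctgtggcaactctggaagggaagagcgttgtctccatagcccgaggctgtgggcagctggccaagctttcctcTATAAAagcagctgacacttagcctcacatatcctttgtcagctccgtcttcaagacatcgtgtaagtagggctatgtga
S100a9 (chr3:90695672-90695971, - strand): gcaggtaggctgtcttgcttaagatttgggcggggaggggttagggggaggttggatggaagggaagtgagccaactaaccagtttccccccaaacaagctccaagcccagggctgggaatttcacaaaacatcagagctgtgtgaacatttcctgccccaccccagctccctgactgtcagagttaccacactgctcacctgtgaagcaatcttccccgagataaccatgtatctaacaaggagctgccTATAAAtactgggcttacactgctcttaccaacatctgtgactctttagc
S100a4 (chr3:90603520-90603819, + strand): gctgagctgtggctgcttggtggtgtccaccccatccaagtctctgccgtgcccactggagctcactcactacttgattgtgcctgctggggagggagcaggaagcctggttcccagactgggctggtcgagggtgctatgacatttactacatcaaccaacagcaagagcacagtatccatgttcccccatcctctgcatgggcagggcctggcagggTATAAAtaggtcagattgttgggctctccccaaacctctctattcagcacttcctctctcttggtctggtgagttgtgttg
TATAAA began 30 bases before the start of S100a8 and 31 bases before that of S100a4, and at base 1 after the start annotated for S100a9. A search on both strands found it in 3 of 10 member windows and in 13.6% of 32851 promoter windows of the same length. Windows were given for 9 members, among them a pair for S100a16; S100a10 is named only. The C/EBP letters TTGCNNAA occurred in 1 member window, that of S100a9, beginning 236 bases before its start, and in 10.8% of all windows. The letters TGANTCA, a looser form of the AP-1 site with any base in the middle, occurred in 2 member windows and in 7.81% of all. They read TGAGTCA in S100a11 and TGAATCA in S100a16. The stricter AP-1 site, with C or G in the middle, does not include the S100a16 letters. Neither the full palindrome of the glucocorticoid receptor (3 of all windows) nor the cAMP response element TGACGTCA (1.79%) was in a member window. These matches describe letters only, and no binding was measured here.

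S100a4, also called metastasin or fibroblast-specific protein, binds nonmuscle myosin and has a role in cell motility. On its brighter probe the signal was 7111 in SPAD and 41652 in SVCD. On its other probe it was 5068 in SPAD and 28630 in SVCD. Both probes thus placed it below SVCD, by 5.37-fold (log2 difference -2.42 ± 0.08) and by 5.18-fold (-2.37 ± 0.08), and under the 9 alternatives its difference lay between -3.26 and -2.40. Its myosin partner gene Myh9 differed by -0.07 ± 0.08 (39461 in SPAD, 45154 in SVCD).

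The cell types in which S100a4 is known went different ways. Fibroblast markers had 2 of 9 genes at least 2-fold higher in SPAD, Thy1 (8.72-fold) and the proteoglycan gene Dcn (3.65-fold), and 1 lower, the collagen gene Col1a2 (log2 difference -1.18), while the matrix gene Dpt was detected in SPAD alone. Of the 10 fibroblast genes detected on at least 1 array, 6 lay above 0 and 4 below, among them Col1a1 at -0.99. The lower count was 2 with quantile normalization, 2 with median scaling and 4 with spike-in scaling. The median of 0.30 turned to -0.54 with spike-in scaling. Their summed signal was 72468 in SPAD and 79757 in SVCD. Among macrophage markers the receptor genes C5ar1, Csf1r, Cd163 and Mrc1 and the actin-binding Aif1 differed by -6.61, -4.07, -3.42, -2.72 and -4.72, Fcgr1 was detected in SVCD alone, and the lysozyme gene Lyz2 differed by 0.35. One Csf1r probe gave only -1.64. Of 6 smooth muscle and myofibroblast genes 5 were at least 2-fold lower, and all 5 proliferation genes were. Whether any of these cells account for the S100a4 difference was not tested.

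**Figure D2:**
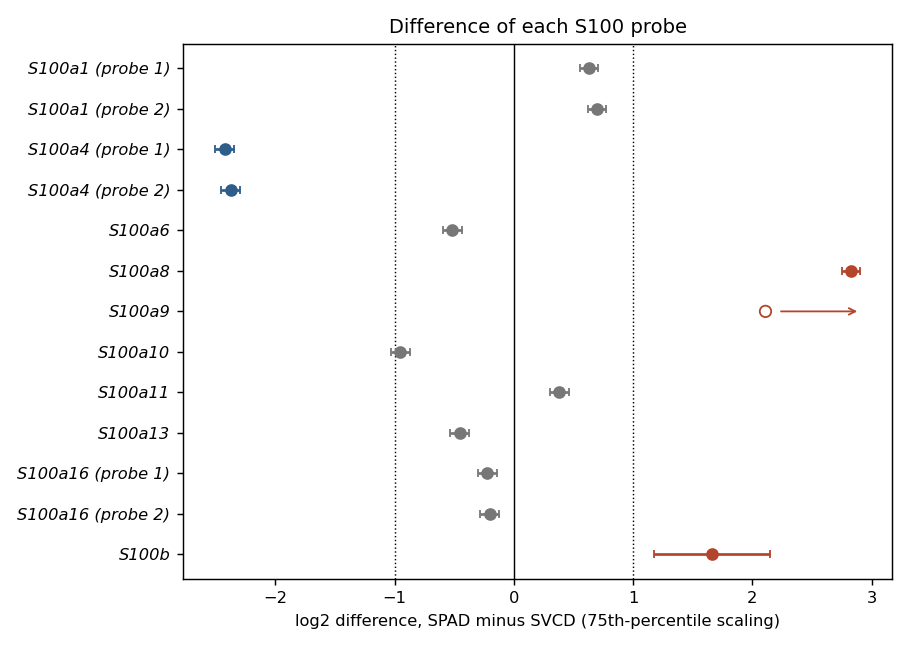
Log2 difference, SPAD minus SVCD, of the 13 S100 probes after 75th-percentile scaling; bars are the spot-to-spot SD, dotted lines mark 2-fold, and the open point with an arrow is the lower bound of S100a9. Probes of the same gene lie within 0.07 of each other.

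S100a6, or calcyclin, is an S100 protein linked to proliferating cells. It had a signal of 104508 in SPAD and 163206 in SVCD, a log2 difference of -0.52 ± 0.08. That is larger than the spot error but under 2-fold, and it passed 2-fold only with spike-in scaling, at -1.36. Cacybp, which encodes the calcyclin-binding protein, differed by 0.81 ± 0.08 (8164 in SPAD, 5070 in SVCD), or by -0.03 with spike-in scaling. The gene and its partner's gene therefore differed in opposite directions, except with spike-in scaling.

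The annexin-binding members were S100a10 and S100a11. S100a10, also known as p11, no longer binds calcium and forms a complex with annexin A2 that holds plasminogen at the cell surface. Its signal was 5561 in SPAD and 11751 in SVCD, a log2 difference of -0.95 ± 0.08, just short of 2-fold. It passed 2-fold with quantile normalization (-1.03), with median scaling (-1.03) and with spike-in scaling (-1.79). Its partner gene Anxa2 had 60577 in SPAD and 103772 in SVCD and differed by -0.65 ± 0.08, so the genes of both parts of the complex had lower signals in SPAD, each by less than 2-fold. S100a11, which binds annexin A1, had 13885 in SPAD and 11625 in SVCD, a difference of 0.38 ± 0.08 that turned to -0.46 with spike-in scaling. Anxa1, which encodes that partner, was 8.79-fold lower in SPAD, with 6168 in SPAD and 59136 in SVCD, and its second probe gave -3.17. S100a11 thus lacked the large difference seen for its partner's gene.

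S100a1 and S100a13 lie back to back. S100a1, abundant in heart muscle, where it acts on calcium release and uptake, had 3991 in SPAD and 2815 in SVCD on its brighter probe. Its other probe had 3539 in SPAD and 2384 in SVCD. These gave log2 differences of 0.63 ± 0.08 and 0.70 ± 0.08, both above 0, and the brighter probe's turned to -0.21 with spike-in scaling. S100a13, which takes part in the release of Fgf1 and interleukin 1 alpha, had 3118 in SPAD and 4662 in SVCD, a difference of -0.45 ± 0.08. Neither neighbour reached 2-fold with 75th-percentile scaling, but they differed in opposite directions except with spike-in scaling, where both were negative. The growth factor gene Fgf1 differed by 0.50 ± 0.13 and Il1a, dim on both arrays, by 0.33 ± 0.49.

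The S100a13 window is shown because its annotated start lies only 105 bases from that of S100a1, which is read the other way. Capitals mark the 204 bases that also belong to the promoter window of S100a1:
S100a13 (chr3:90514185-90514484, + strand): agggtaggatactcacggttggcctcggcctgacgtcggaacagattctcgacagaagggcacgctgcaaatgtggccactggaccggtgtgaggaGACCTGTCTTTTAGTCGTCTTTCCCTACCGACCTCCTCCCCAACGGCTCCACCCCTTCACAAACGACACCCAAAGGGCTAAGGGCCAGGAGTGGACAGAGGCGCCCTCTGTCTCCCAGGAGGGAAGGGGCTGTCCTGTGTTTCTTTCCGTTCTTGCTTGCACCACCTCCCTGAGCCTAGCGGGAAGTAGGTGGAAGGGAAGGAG
Over the 10 member windows the GC content ran from 49.3% in S100a6 to 61.7% in S100a11, with 52.7% as the median of all windows. The window of S100a9 had 51.3% and that of S100a4 55.3%.

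S100a16, reported in mouse preadipocytes to promote adipogenesis, was nearly level. Its brighter probe read 1821 in SPAD and 2318 in SVCD, a log2 difference of -0.22 ± 0.08. The other probe read 1194 in SPAD and 1500 in SVCD, a difference of -0.20 ± 0.08. With spike-in scaling the brighter probe gave -1.06.

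S100b is known best from astrocytes and Schwann cells and is also made by adipocytes. Its signal was dim on both arrays, 62.0 in SPAD and 21.3 in SVCD, and 3.17-fold higher in SPAD (log2 difference 1.67 ± 0.49). It fell short of 2-fold with the normexp background correction (0.79) and with spike-in scaling (0.83). Of 9 Schwann cell genes 7 were detected, 2 at least 2-fold higher, among them Ncmap (1.76), and 2 lower, the myelin gene Mbp (-2.33) and the transcription factor gene Egr2 (-1.81). Cdh19 was among the 2 not well above background on either array, and the list summed to 1325 in SPAD and 4839 in SVCD. With normexp 0 of its genes were at least 2-fold higher and its median of -0.45 became 0.03, and with spike-in scaling 0 were higher and 4 lower. Mature adipocyte markers, which check the label of the cells, were at least 2-fold higher in SPAD for all 11 detected, such as the adiponectin gene Adipoq (16.2-fold), Plin1 (18.0-fold), Plin4 (33.3-fold) and the carbonic anhydrase gene Car3 (378-fold). In SVCD the signals of Adipoq (22.7), Plin1 (29.0) and Car3 (20.6) were dim, with a spot SD of 0.37 for each difference. The brighter Fabp4 and Pnpla2 were 3.79-fold and 2.96-fold higher. The list's median of 4.02 became 2.78 with normexp and 3.18 with spike-in scaling. The count was 10 with normexp and 9 with spike-in scaling, and a second, dim probe of Cidec gave -0.0040. The leptin gene Lep stayed near background on both. Their summed signal was 151818 in SPAD and 39623 in SVCD, and its part in the S100b difference was not tested. The adipocyte list was not alone in being higher in SPAD. Of 8 endothelial genes 7 were at least 2-fold higher and 1 lay below 0, with a median of 3.02.

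The other S100 genes on the array were dim, which widens their spot errors. Of 8 such genes 5 were detected on both arrays. S100g, the vitamin D-dependent calbindin, had 15.3 in SPAD and 91.7 in SVCD on its brighter probe and 12.3 in SPAD and 98.8 in SVCD on the other, log2 differences of -2.46 and -2.88. S100a3, known from hair, had 21.1 in SPAD and 52.0 in SVCD (-1.17 ± 0.34), or -0.32 with normexp. S100a2 (0.19), S100a5 (0.15) and S100a14 (-0.19) differed by less than their spot errors of 0.34, 0.49 and 0.49. S100z was detected in SPAD alone at 16.9, with a bound of 2.14-fold higher. Its log2 bound of 1.10 shrank to 0.34 with normexp, 0.81 with quantile normalization and 0.26 with spike-in scaling. S100a7a and S100a7l2 were not well above background on either array.

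The fused S100 genes join an S100 domain to long repeats and serve the skin and hair follicle. Of 6 on the array, 3 were detected on at least 1 array. Tchh, encoding trichohyalin of the hair follicle's inner root sheath, had 894 in SPAD and 94.0 in SVCD and was 10.4-fold higher (log2 difference 3.37 ± 0.12). Its neighbour Tchhl1 had 99.4 in SPAD and 2.24 in SVCD, where it was not well above background, with a bound of 12.6-fold higher. Crnn differed by -0.08 ± 0.34, while Flg2, Hrnr and Rptn were not well above background on either array. With normexp the Tchh difference was 2.81 and the Tchhl1 bound 1.36, and with spike-in scaling they were 2.53 and 2.82, so both stayed beyond 2-fold. Keratinocyte and other epithelial markers gave no stable count: of the 4 detected on both arrays Krt14 was 2.09-fold higher and Ivl 4.01-fold lower, and Epcam and Cdh1 were detected in SVCD alone. The higher count was 0 with normexp, quantile normalization, median scaling and spike-in scaling, and the lower count was 0 with normexp.

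**Figure D3:**
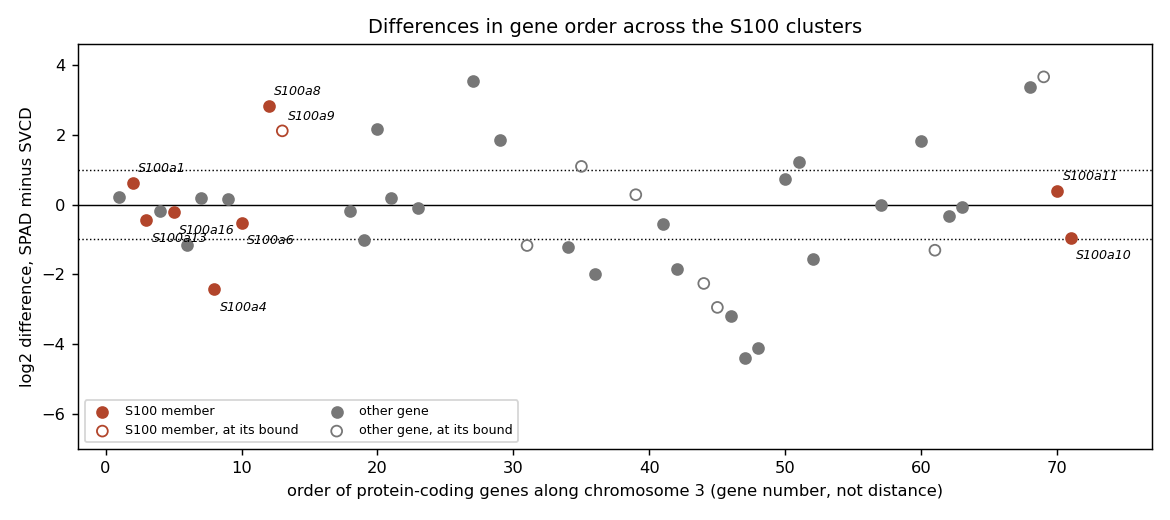
Log2 difference, SPAD minus SVCD, of the detected protein-coding genes from the neighbour before S100a1 to that after S100a10, in gene order on chromosome 3 and not to distance; open points are bounds. S100a8 and S100a9 lie above the 2-fold line and S100a4 below it, between S100a2 (0.19) and S100a5 (0.15), both dim.

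By gene order, 9 members lie on chromosome 3 and S100b on chromosome 10. The stretch from the gene before S100a1 to the gene after S100a10 holds 72 protein-coding genes, of which 63 are no members and 56 of those were on the array. Of the 27 that both arrays detected, 6 passed 2-fold upward in SPAD and 9 downward, against 14.4% and 13.3% of all genes. S100a4 at -2.42 lies between S100a2 (0.19 ± 0.34) and S100a5 (0.15 ± 0.49), which were dim on both arrays. S100a8 (2.83) is flanked by S100a7a, which was not well above background, and by S100a9. Outside the family, Chtop next to S100a1 differed by 0.21 ± 0.08, and beside S100b the genes Prmt2 and Dip2a differed by -0.37 ± 0.08 and 0.10 ± 0.08. Pglyrp4 and Tdpoz2, the outer neighbours of S100a9 and S100a10, were not well above background.

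The receptors for released S100 proteins and their adaptors made up a further list. Of its 10 genes, 9 were detected on both arrays, with 2 beyond 2-fold upward in SPAD, where 14.4% of all genes were, 0 beyond it downward, and a median of 0.15 that turned to -0.69 with spike-in scaling. Tlr4, the endotoxin receptor that S100a8 also engages, had 664 in SPAD and 637 in SVCD, a difference of 0.19 ± 0.09. Its co-receptor gene Ly96 was 2.33-fold higher (2714 in SPAD, 1270 in SVCD), and Bsg, a receptor for S100a9, 2.19-fold higher (12976 in SPAD, 6458 in SVCD); with spike-in scaling they differed by 0.38 and 0.29. Ager, which encodes the receptor RAGE, was dim, at 15.8 in SPAD and 7.24 in SVCD, where it was not well above background, and its bound of 2.00-fold shrank to a log2 value of 0.33 with normexp. Both Myd88 (-0.01 ± 0.02) and Cd14 (0.11 ± 0.08) were level.

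Of 18 detected genes of intracellular partners, 3 passed 2-fold, 1 upward in SPAD and 2 downward, where 27.7% of all genes did. Below 0 lay 11 of them, and their median was -0.29, against 0.07 over all genes. The lower pair were annexin genes, Anxa1 (-3.14 ± 0.08) and Anxa6 (-1.53 ± 0.08), while Anxa5 (-0.34) and Anxa11 (-0.34) differed less. Dlc1, which encodes a GTPase-activating protein that S100a10 binds, was 2.13-fold higher, a log2 difference of 1.09 that was 0.93 with normexp and 0.25 with spike-in scaling. The S100b partner genes Iqgap1 and Stk38 differed by -0.97 ± 0.08 and -0.44 ± 0.08. Ahnak, a scaffold bound by S100a10 and annexin A2, gave -0.52 on the probe used and 3.06, -0.0039 and -0.84 on its other probes, so its direction is unsettled.

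The plasminogen system, on which S100a10 acts, was split. Of 7 detected genes 2 were at least 2-fold higher, the inhibitor gene Serpine2 (4.69-fold) and the activator gene Plat (2.55-fold), and 2 at least 2-fold lower, the activator gene Plau (-4.53 ± 0.10) and its receptor gene Plaur (-1.69 ± 0.08). Plau had 128 in SPAD and 3229 in SVCD. The phagocyte NADPH oxidase, which S100a8 and S100a9 help to activate, had lower signals throughout: 4 of 6 genes were at least 2-fold lower, Ncf1 (-4.38), Ncf4 (-3.44), Rac2 (-2.34) and Cybb (-2.31), and all 6 lay below 0. S100a8 therefore stood higher in SPAD where this oxidase's genes stood lower.

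**Figure D4:**
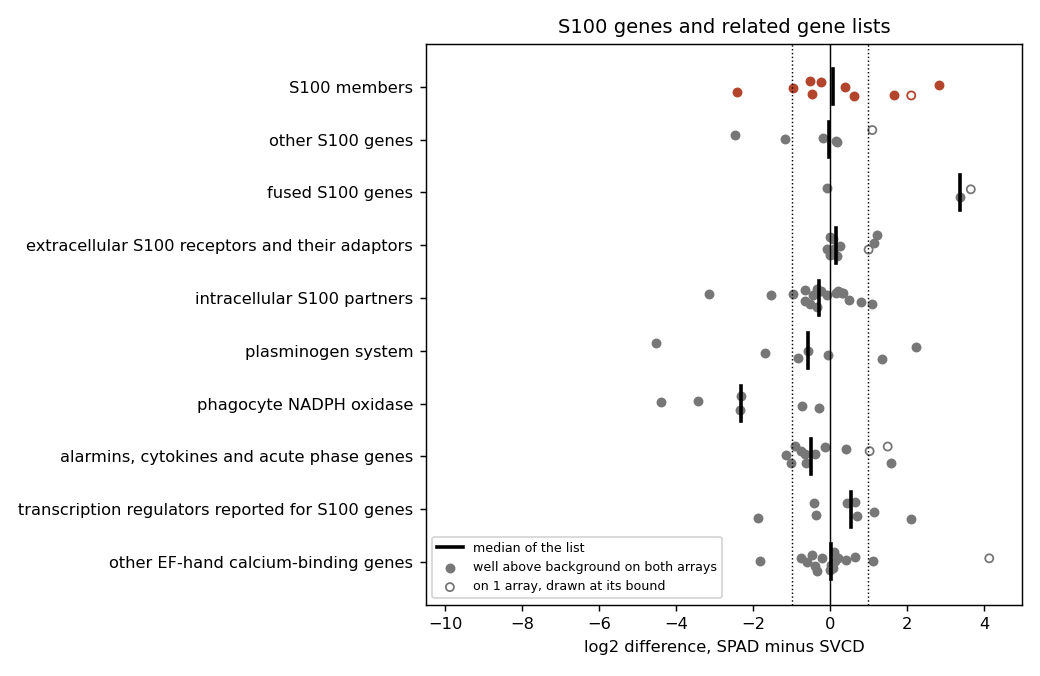
Log2 differences, SPAD minus SVCD, of the detected genes of the S100 members and 9 related lists; filled points were well above background on both arrays, open points on 1 and drawn at their bound, and the bar is each list's median. The members spread from -2.42 to 2.83 around a median of 0.08, and the oxidase genes all lie below 0.

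Alarmin, cytokine and acute phase genes had a median of -0.50 over 12 detected genes. Orm1, an acute phase protein gene, was 2.97-fold higher. Lcn2 (-1.14 ± 0.13) and Hmgb1 (-1.01 ± 0.08), another alarmin gene, were at least 2-fold lower on the probes used, Hmgb1 ranging from -1.01 to -0.44 over its 7 probes. With normexp 0 genes of this list were at least 2-fold lower, and with spike-in scaling 7 were, with 0 higher. Saa2 and Il33 were detected in SPAD alone, at 16.1 and 22.3, with bounds of 2.04-fold and 2.83-fold higher. Of the 12 genes 8 lay below 0 and 4 above, where all genes had a median of 0.07. Some of the 8 differed little, such as Hp (-0.13) and Il6 (-0.38).

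Of 8 genes for transcription regulators that have been linked to S100 genes, 2 were at least 2-fold higher, where 14.4% of all genes were. These were Cebpd (9364 in SPAD, 2371 in SVCD, 4.31-fold) and Stat3 (2.20-fold). Spi1, the myeloid regulator PU.1, had 140 in SPAD and 554 in SVCD and differed by -1.86 ± 0.11. Cebpb differed by 0.45 ± 0.08 and the glucocorticoid receptor gene Nr3c1 by -0.35 ± 0.08. Stat3 differed by 0.30 with spike-in scaling.

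Other EF-hand genes gave a comparison outside the family. Their median was 0.02 over 17 detected genes. Against 14.4% and 13.3% of all genes, 1 was at least 2-fold higher and 1 lower. These were the secreted matrix protein gene Sparc (2.17-fold) and Efhd2 (-1.83 ± 0.08), known from immune cells. The higher count was 0 with quantile normalization and with spike-in scaling, where 7 were lower. Efhd1, a mitochondrial EF-hand gene, was detected in SPAD alone (139 in SPAD, 5.85 in SVCD), with a bound of 17.6-fold higher. The calmodulin genes Calm2 and Calm3 differed by -0.40 and -0.60, and second probes gave -0.42 and -0.40. Calb1 and Calb2 were not well above background on either array.

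**Figure D5:**
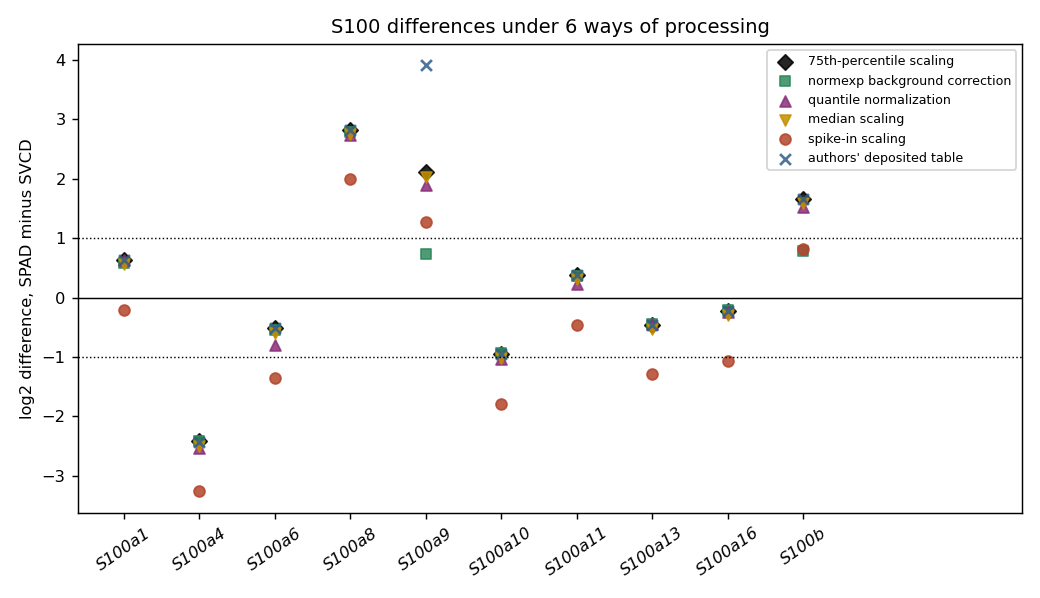
Log2 difference, SPAD minus SVCD, of each S100 member under 75th-percentile scaling and 5 of the alternatives. S100a4 stays below and S100a8 above the dotted 2-fold lines in all of them, while S100a1 and S100a11 cross 0 with spike-in scaling; the deposited table and 75th-percentile scaling part for S100a9, drawn as a bound under 75th-percentile scaling.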

How the data were processed

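RNA of SPAD and SVCD, 30 ng each, was labelled with Cy3 and hybridised to 1 array per group, both on the same slide, per the labels and the file headers. The submitters' processing notes name Agilent Feature Extraction 10.7.3.1 for reading the spots. The deposited intensity values are background-subtracted and on a linear scale, per the file headers. A second deposited file holds the authors' log2 values, centred on both arrays for each of 39485 probes; how it was scaled is not stated, and its differences equal the unscaled log2 differences of the scanner files plus 0.12. Here each array's log2 intensity was scaled to its 75th percentile over 39425 non-control probes, leaving out 73 and 85 outlier spots on the SPAD and SVCD arrays; none lay on a member. Probes were named by unversioned RefSeq transcript (GRCm38.p6), which matched 69.8% of them. The brightest probe stood for a gene. Genes were called at 2-fold; a gene detected on 1 array was given a bound, for which the dim array's value was its own signal or that array's lowest detected signal, whichever was larger. That lowest signal is not a sharp limit, so a bound is not a strict minimum. In SVCD it was 8.60, but a Krt10 probe at 10.8 was not well above background. No spot was saturated, and 64.5% and 65.6% of probes were well above background on the SPAD and SVCD arrays. The number of arrays limits the precision.

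Named were all members, detected family genes, the genes of each list at least 2-fold apart (at most 6) and the nearest neighbours; a few near-level partners and receptors were added after their values were seen. With 1 array per group, no genes were named by likeness of pattern. Members, lists and alternatives were chosen with earlier results of these data known. The processing was tested on simulated data. A few genes of the lists are counted but not reported singly here. The normexp alternative used limma 3.58.1 on spot medians, since the files hold no spot means, and added an offset of 50. Chondrocyte, endothelial and mesothelial markers were also counted: among genes detected on both arrays, 1, 7 and 0 passed 2-fold upward in SPAD and 0, 0 and 3 downward.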

Additional observations from a re-analysis of the deposited data

How the results depend on the processing

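The 10 members under 9 alternatives gave 89 values, of which 2 had the other sign and 9 lay on the other side of 2-fold. Some of the 89 could not move by construction, such as members with 1 probe under the mean over all probes. The count of members at least 2-fold higher in SPAD was 2, but 1 with normexp and 1 with spike-in scaling, where S100b fell short, and 3 without the filter on dim probes, where S100a9 counts by its own value. The count at least 2-fold lower was 1, but 2 with quantile normalization, 2 with median scaling and 5 with spike-in scaling. The members' median of 0.08 became -0.0062 with quantile normalization, -0.76 with spike-in scaling and -0.22 without the genes that only 1 array detected. Spike-in scaling moved the median of all genes by -0.84; it rests on 8 spike-in probes whose unscaled differences ran from 0.65 to 1.76. Counted over all genes, 731 were higher and 5363 lower with spike-in scaling, against 2029 and 1874 with 75th-percentile scaling. With normexp 1380 were higher and 1336 lower, and without a filter on dim probes 3371 and 2627. S100a9 was 3.92 without a filter and 3.91 in the authors' deposited table, where no bound applies. By construction, spike-in scaling takes the same constant from every difference, and the normexp offset of 50 draws dim genes toward 0. Beyond each alternative's own construction, the cause of these shifts was not tested. No paired analysis was possible because each group has 1 array. S100a9 and S100b are limited by signal over background.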

Other observations

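Between both blocks of S100 genes on chromosome 3 lie genes of the skin's cornified envelope, and some differed widely; those named here were chosen after their values were seen. Lce1h, a late cornified envelope gene, had 13.4 in SPAD and 310 in SVCD (log2 difference -4.41), Lce1i 69.0 in SPAD and 1292 in SVCD (-4.10), and Lce1g 95.8 in SPAD and 956 in SVCD (-3.19). Sprr2e, a small proline-rich protein gene, had 256 in SPAD and 23.9 in SVCD (3.55), and Crct1 had 961 in SPAD and 298 in SVCD (1.82). Tchh and Tchhl1, at the far end, were higher in SPAD as well. Genes of these families are close copies of each other, and how far their probes bind more than one copy was not tested.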
